A study of Mus musculus with 60 samples.

Results

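The extraembryonic part of cultured mouse embryo explants was set against the embryonic part in 6 RNA libraries, of 60 samples in the series. The members are the 2 libraries of extraembryonic tissue (labelled ExE) and the 4 libraries of anterior (A) and posterior (P) embryonic tissue. The labels place each library in its part and arm, and no expression value was used to assign one. Embryos of the ICR strain were kept as explants in N2B27 medium for 48 hours. In the EPZ005687 arm the medium held EPZ005687, which inhibits EZH2, the enzyme that methylates lysine 27 of histone H3, and in the DMSO arm it held the same volume of the solvent. Each arm gave 1 ExE, 1 A and 1 P library, from polyA RNA of whole dissected pieces. No allele or transgene is named, and the labels leave out the stage of these embryos and how many were pooled. The column names carry a code that is the same within an arm and not the same across arms, so handling and arm cannot be told apart. Whether the 3 pieces of an arm came from the same embryos is not stated. Chromatin and bisulfite libraries make up the other 54 samples, which were not analysed here.

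The extraembryonic part of an early mouse conceptus can hold trophoblast, the visceral endoderm that covers the egg cylinder and later lines the yolk sac, the parietal endoderm that lays down Reichert's membrane, and extraembryonic mesoderm with the first blood cells. Visceral endoderm takes up maternal proteins through its brush border, digests them in lysosomes and secretes plasma proteins that the liver makes later. The anterior epiblast gives rise to neural ectoderm, and the posterior epiblast passes through the primitive streak to form mesoderm, heart and blood precursors included.

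Totals ran from 1000342 counts in the A library with EPZ005687 to 5812535 in the ExE library with DMSO. Levels are given in CPM, meaning counts after each library is brought to 1000000. Since 0 counts leave room for 3, the limit of detection was 0.516 to 3.0 CPM over the 6 libraries. From the next paragraph on, CPM are also scaled by TMM, a normalization of library composition. The P library with EPZ005687 stood apart in its share of ribosomal RNA (Rn45s, 6.54% of counts against 0.0538% to 1.44% in the other 5) and of ribosomal protein genes (14.4% against 2.41% to 6.10%). In the A library with EPZ005687 the gene with the highest count was Mrgpra6, a sensory neuron receptor gene, at 2.40% of all counts. With 1 library per part and arm, p-values rest on how these 6 libraries vary, which may in part be technical.

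The data show a secreted endoderm programme that was high in both ExE libraries and a neural programme that was low in both. Apoa2, Afp, Rbp4, Ttr and the basement membrane genes Col4a1 and Sparc stood in the ExE libraries above the mean of A and P of the same arm, while Otx2, Sox2, Sox11, Sfrp1 and Crabp2 stood below both A and P in both arms. Trophoblast genes were divided: Cdx2, Elf5, Esrrb and Ascl2 were at 2.40 CPM or less in the ExE libraries, while Ets2, Tead4, Nrk and Rhox6 were above both A and P in both arms. By its markers the part labelled ExE carried transcripts of visceral endoderm, of basement membrane genes on the parietal endoderm list, of some trophoblast genes and of blood. Blood genes summed to 28320 CPM with EPZ005687 and 604.5 CPM with DMSO in ExE, and to 1430 and 9908 CPM in P. The P libraries also carried secreted endoderm genes, at a summed 9927 CPM with EPZ005687 and 18390 CPM with DMSO, against 24770 and 47120 CPM in ExE. The edgeR test below called 0 of 13744 genes against the mean of A and P, 15 against A alone and 0 against P alone. In such tissue pieces, fewer cells of a type and less RNA per cell cannot be told apart.

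The promoters of 2 secreted endoderm genes, 2 basement membrane genes and 2 neural genes are shown first as examples of 3 gene lists that the results below describe at length. They are the 2 members of each list with the highest mean level among those with an entry in the RefSeq promoter table (GRCm38.p6), each running from 250 bases before to 50 bases after the annotated start. Where a gene has several entries the first is shown, which holds for Rbp4 and Otx2. Capitals mark matches on either strand to 5 motifs. For GATA factors the letters searched were AGATAA. Those for HNF1 were GTTAAT, a part of its site. Forkhead factors were searched as TGTTTAC. The letters for OTX factors were TAATCC. That of the core promoter box was TATAAA. These motifs did not overlap each other in the sequences shown.
Afp, chr5:90490464-90490763, plus strand, with the HNF1 and TATA box letters: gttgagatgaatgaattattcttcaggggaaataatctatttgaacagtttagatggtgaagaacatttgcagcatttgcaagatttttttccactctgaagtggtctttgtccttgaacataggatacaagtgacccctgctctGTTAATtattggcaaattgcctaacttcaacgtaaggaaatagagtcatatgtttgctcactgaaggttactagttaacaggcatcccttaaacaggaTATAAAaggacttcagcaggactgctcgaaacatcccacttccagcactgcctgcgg
Rbp4, chr19:38125272-38125571, minus strand, with a forkhead motif: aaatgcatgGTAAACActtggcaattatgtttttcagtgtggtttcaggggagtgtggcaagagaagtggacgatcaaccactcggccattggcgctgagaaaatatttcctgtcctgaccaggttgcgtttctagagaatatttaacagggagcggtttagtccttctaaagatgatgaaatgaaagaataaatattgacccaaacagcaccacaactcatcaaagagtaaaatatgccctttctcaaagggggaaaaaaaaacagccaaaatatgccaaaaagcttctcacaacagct
Sparc, chr11:55420031-55420330, minus strand, with the HNF1 letters: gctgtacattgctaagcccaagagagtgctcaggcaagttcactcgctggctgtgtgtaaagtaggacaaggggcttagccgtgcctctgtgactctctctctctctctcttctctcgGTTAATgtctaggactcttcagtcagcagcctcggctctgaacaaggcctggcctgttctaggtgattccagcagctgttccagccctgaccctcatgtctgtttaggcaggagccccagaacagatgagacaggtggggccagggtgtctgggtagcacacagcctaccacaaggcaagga
Col4a1, chr8:11312777-11313076, minus strand, with none of these motifs: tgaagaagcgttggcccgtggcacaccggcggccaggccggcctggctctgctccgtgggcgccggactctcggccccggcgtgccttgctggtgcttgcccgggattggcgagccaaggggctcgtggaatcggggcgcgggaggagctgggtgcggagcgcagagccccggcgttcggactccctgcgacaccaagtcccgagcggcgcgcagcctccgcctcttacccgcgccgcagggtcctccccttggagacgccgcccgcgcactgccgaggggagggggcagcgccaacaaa
Sox11, chr12:27342669-27342968, minus strand, with the HNF1 letters: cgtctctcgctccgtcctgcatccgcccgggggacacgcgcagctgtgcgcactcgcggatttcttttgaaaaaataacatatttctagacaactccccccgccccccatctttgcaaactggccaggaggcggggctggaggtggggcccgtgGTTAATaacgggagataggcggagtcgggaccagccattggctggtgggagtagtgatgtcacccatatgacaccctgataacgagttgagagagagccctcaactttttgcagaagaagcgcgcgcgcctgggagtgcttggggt
Otx2, chr14:48667595-48667894, minus strand, with a TATA box: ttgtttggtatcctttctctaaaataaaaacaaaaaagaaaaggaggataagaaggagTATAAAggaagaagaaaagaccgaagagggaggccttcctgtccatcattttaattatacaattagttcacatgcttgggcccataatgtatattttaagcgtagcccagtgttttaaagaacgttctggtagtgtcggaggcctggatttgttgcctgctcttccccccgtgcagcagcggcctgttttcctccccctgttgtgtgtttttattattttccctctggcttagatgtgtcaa
The Afp promoter held 3 CpG dinucleotides and that of Col4a1 held 37, so members of the endoderm side ran from CpG-poor to CpG-rich.

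Of the 18 secreted endoderm genes that passed the count filter, 16 (88.9%) had a promoter in the table. Their median was 4 CpG per 300 bases, against 7 over 27025 symbols of the table, which include genes not tested here. Of the 16, 9 (56.2%) held under 5 CpG, against 38.3% of the table. The HNF1 letters stood in 6 of the 16 (37.5%), against 7.2% of the table. They were not confined to this list, since 3 of the 9 neural promoters in the table held them, and 0 of 12 promoters of the uptake and regulator list did. The TATA box letters stood in 4 of the 16 (25%), against 14.2% of the table, and the forkhead motif in 2 (12.5%), against 3.5%. OTX letters were found in 2 (12.5%), against 7.2%, and GATA letters in 1 (6.2%), against 11.4%. Only 79.5% of all tested genes and 75% of the uptake and regulator list had an entry. For the parietal endoderm list it was 53.3% and for the neural list 52.9%. All of these are under the 80% needed, so no CpG median or CpG share is given over those sets. The HNF1 counts above for the neural and the uptake and regulator lists cover only the members with an entry. A match of letters is a description of the sequence and not of binding.

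The main comparison asked which genes differed between the ExE libraries and the mean of A and P with the arm as a block. The edgeR quasi-likelihood test called 0 of 13744 tested genes (0.0%) at an adjusted p of 0.05, and 882 had an unadjusted p under 0.05 (546 higher and 336 lower in ExE). The smallest adjusted p was 0.131. DESeq2 called 242 genes (140 higher and 102 lower in ExE) and limma-voom 35 (16 higher and 19 lower) in the same design. Without the A library with EPZ005687 the edgeR test called 388 genes, and without the P library with DMSO it called 358. All fold changes below from this contrast are therefore values that did not pass the test, given with their standard errors (SE). As above, CPM are scaled by TMM in every value that follows.

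Genes with one sign in both arms were counted next. ExE was above the mean of A and P in both arms in 4110 tested genes (29.9%) and below it in both arms in 3437 (25%). It was above both A and P in each arm in 1964 genes (14.3%) and below both in 1732 (12.6%). Both ExE libraries exceeded all 4 embryonic libraries in 1073 genes (7.81%), and both were under all 4 in 940 (6.84%). For the other 6197 genes the arms differed in sign. With only these ranks within arms, no single gene could reach a one-sided exact permutation p below 0.111. Across genes the ExE differences of the arms, which share no library, had a Pearson correlation of 0.167 over all tested genes and 0.392 over the 7324 genes with at least 20 CPM in ExE or in the embryonic mean. Genes are not independent replicates, and these correlations are descriptions.

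**Figure D1:**
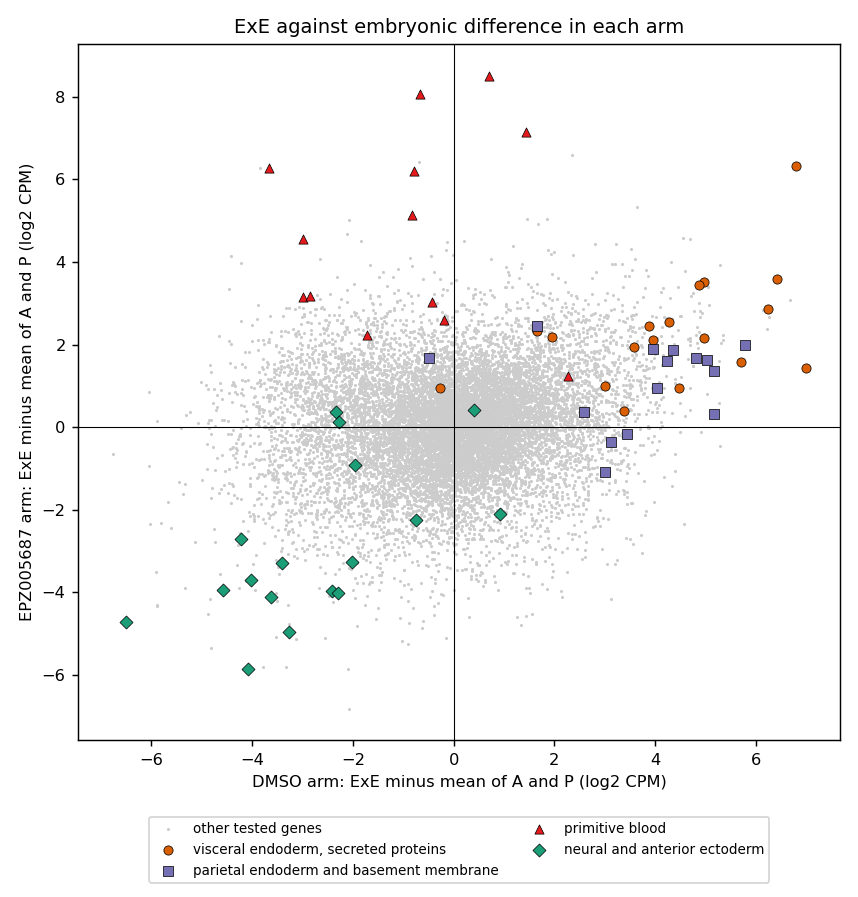
Each point is a tested gene. The horizontal axis gives the log2 difference of ExE minus the mean of A and P with DMSO and the vertical axis the same with EPZ005687 (TMM-scaled CPM, prior count 2). Secreted visceral endoderm genes (17 of 18) lie above 0 on both axes, neural genes (13 of 17) below 0 on both, and 10 of 13 blood genes have different signs in the arms.

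Secreted proteins of visceral endoderm were higher in ExE. Of 20 listed genes 18 passed the count filter. ExE was above the mean of A and P in both arms for 17 of the 18, against 29.9% of all tested genes, and above both A and P for 12, against 14.3%. Their median log2 fold change was 3.04, against 0.03 over all tested genes. The median was 4.75 against A alone and 1.63 against P alone. In edgeR 15 were higher at an unadjusted p under 0.05, against 546 of all 13744 tested genes. Counts over members that passed a filter describe these genes and are not offered as support, here and for each list below, since a gene can pass through its level in ExE alone. For each list below, the shares over all tested genes are 29.9% above the embryonic mean in both arms and 25% below it. They are 14.3% above both A and P and 12.6% below both. The summed level of all 20 genes was 24770 CPM with EPZ005687 and 47120 CPM with DMSO in ExE, against 3663 and 144 CPM in A with EPZ005687 and DMSO and 9927 and 18390 CPM in P with EPZ005687 and DMSO. The P libraries thus carried these transcripts too, and the A libraries differed from each other by more than the ExE libraries did. Without the A library with EPZ005687 the median was 5.83.

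Apoa2, an apolipoprotein of high density lipoprotein (chr1:171221564-171226379, GRCm38.p6), had the largest log2 fold change of the list. Its level in ExE was 641 CPM with EPZ005687 and 2418 CPM with DMSO, against 4.68 CPM with EPZ005687 and 0.590 CPM with DMSO in A and 10.8 CPM with EPZ005687 and 341 CPM with DMSO in P. Both ExE libraries were above all 4 embryonic ones. The log2 fold change was 6.15 (SE 1.01, edgeR adjusted p 0.131).

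Afp, the fetal serum carrier whose promoter opens the set above, stood at 8115 CPM with EPZ005687 and 20590 CPM with DMSO in ExE. Against these, A had 2262 CPM with EPZ005687 and 5.31 CPM with DMSO, and P had 3985 CPM with EPZ005687 and 4307 CPM with DMSO. ExE was highest in each arm, but the A library with EPZ005687 held far more Afp than that with DMSO, and the log2 fold change of 3.15 had an SE of 1.5. Rbp4, the plasma carrier of retinol, reached 6766 CPM with EPZ005687 and 10190 CPM with DMSO in ExE, against 462 and 2.95 CPM in A and 678 and 3844 CPM in P with EPZ005687 and DMSO. Both ExE libraries were above all 4 embryonic libraries (log2 fold change 3.57, SE 1.25). Fibrinogen beta chain (Fgb) showed the same order, with 462 CPM with EPZ005687 and 1428 CPM with DMSO in ExE, against 32.8 and 4.72 CPM in A and 52.7 and 434 CPM in P with EPZ005687 and DMSO (log2 fold change 3.62, SE 0.85).

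Ttr, Apoe and Apob were above A in both arms and did not keep one direction against P. Ttr, the thyroid hormone carrier, had 1415 CPM with EPZ005687 and 4856 CPM with DMSO in ExE, against 93.7 and 2.36 CPM in A and 2348 and 2762 CPM in P with EPZ005687 and DMSO. The P library was above ExE with EPZ005687 and below it with DMSO. Its log2 fold change was 6.36 against A and 0.39 against P. Alb, the main plasma protein of liver, was at 5.2 CPM with EPZ005687 and 0.897 CPM with DMSO in ExE, against at most 4.68 CPM in A and 4.37 CPM in P, and showed no difference beyond its error (log2 fold change −0.11, SE 1.82). Apoc2 and Ahsg did not pass the filter and were at or under 3.12 CPM in every library.

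**Figure D2:**
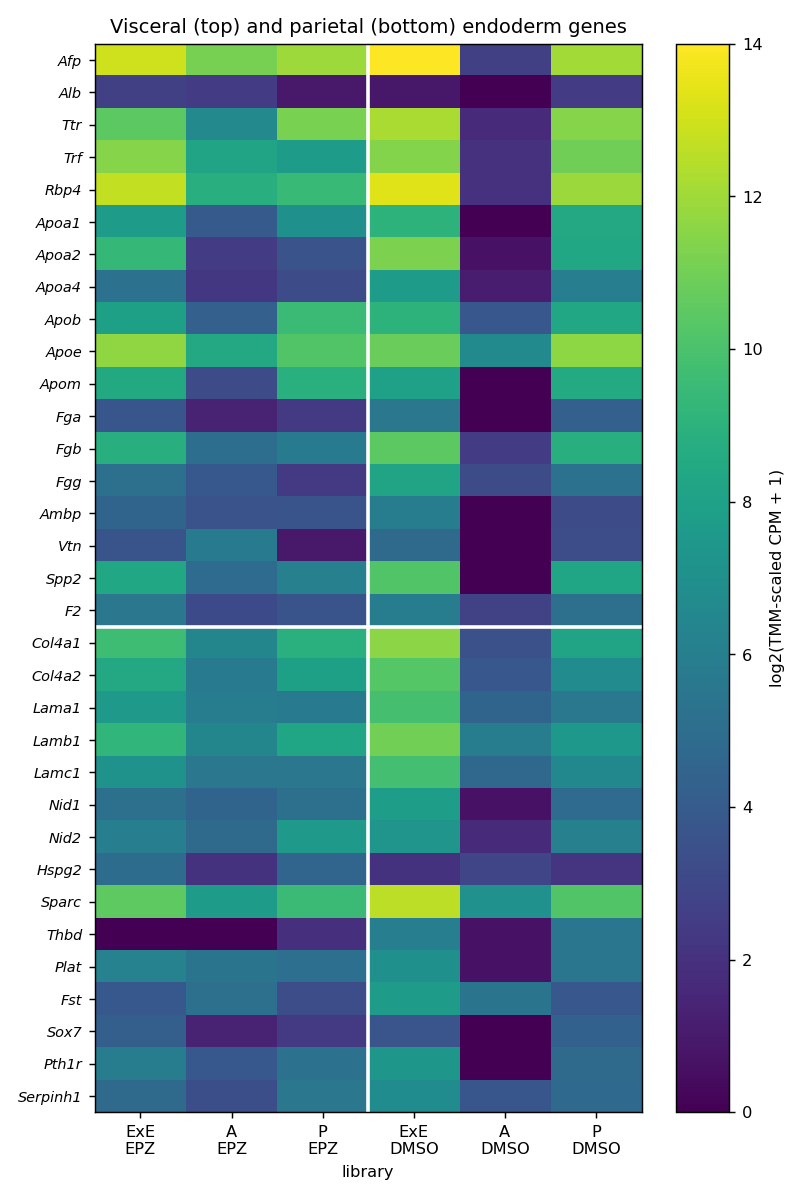
Rows are the tested members of the secreted visceral endoderm list (top) and the parietal endoderm list (bottom), columns the 6 libraries, and colour gives log2(TMM-scaled CPM + 1). The ExE columns are the brightest of their arm for most rows, as for Afp (8115 and 20590 CPM with EPZ005687 and DMSO), and for most rows A with DMSO is the darkest.

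Genes for uptake and for regulation of visceral endoderm were higher in ExE by a smaller margin, which lay mostly over A. All 16 listed genes passed the filter. ExE was above the embryonic mean in both arms for 13 and above both A and P for 6, against 29.9% and 14.3%. The median log2 fold change was 2.07 (3.70 against A and 0.62 against P). The summed level of the 16 genes was 2257 CPM with EPZ005687 and 4206 CPM with DMSO in ExE. It was 1114 and 840 CPM in A and 3678 and 4061 CPM in P with EPZ005687 and DMSO. Emb alone gave 2503 and 2279 CPM of the P sums. The log2 difference of ExE minus P was over 2 in 0 of the 16 and below 0 in 2. Without the ExE library with DMSO the median was 1.32, and without the A library with EPZ005687 it was 3.72. Cubn, the receptor subunit for vitamin and protein uptake, had 218 CPM with EPZ005687 and 441 CPM with DMSO in ExE, against 45.3 and 47.2 CPM in A and 109 and 291 CPM in P with EPZ005687 and DMSO. ExE was above both embryonic libraries of its own arm (log2 fold change 1.73, SE 0.51). Pdzk1, a scaffold protein of the apical membrane, had 124 CPM with EPZ005687 and 244 CPM with DMSO in ExE, against 14.1 CPM and 0 in A and 10.8 and 102 CPM in P with EPZ005687 and DMSO (log2 fold change 3.15, SE 1.01).

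Among the transcription factors of this list, Gata4 stood at 62.9 CPM with EPZ005687 and 82.1 CPM with DMSO in ExE, against 3.12 CPM and 0 in A and 47.0 and 27.5 CPM in P with EPZ005687 and DMSO. Both ExE libraries were above all 4 embryonic libraries (log2 fold change 3.48, SE 0.85). Hnf4a, a regulator of lipoprotein and plasma protein genes, was above P with DMSO (91.2 CPM in ExE against 20.1 CPM in P) and below it with EPZ005687 (15.6 CPM in ExE against 20.7 CPM in P). Lrp2, the megalin receptor, and Emb, a cell surface glycoprotein, had log2 fold changes of −0.03 (SE 0.52) and 0.02 (SE 0.64), with ExE between A and P in each arm.

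By their medians, parietal endoderm and basement membrane genes were higher in ExE against both A and P. All 15 listed genes were tested. ExE was above the embryonic mean in both arms for 11 and above both A and P for 8, against 29.9% and 14.3%. The median log2 fold change was 2.97 (3.78 against A and 2.0 against P). The summed level was 3863 CPM with EPZ005687 and 15680 CPM with DMSO in ExE, against 688 and 331 CPM in A and 2247 and 2180 CPM in P with EPZ005687 and DMSO. The ExE library with DMSO was thus the highest of the 6 by a wide margin. Without it the median was 1.51, and without the A library with DMSO it was 1.78.

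Col4a1, a chain of type IV collagen, had 800 CPM with EPZ005687 and 3072 CPM with DMSO in ExE, against 83.6 and 10.0 CPM in A and 477 and 291 CPM in P with EPZ005687 and DMSO. Both ExE libraries were above all 4 embryonic ones (log2 fold change 4.15, SE 0.92). Its partner chain Col4a2 had a log2 fold change of 3.67 (SE 0.78), and the laminin chains Lama1, Lamb1 and Lamc1 had 3.50 (SE 0.75), 3.29 (SE 0.67) and 3.05 (SE 0.69). Lama1 differed from A by 3.62 and from P by 3.39 on the log2 scale. Sparc, a matrix glycoprotein made in quantity by parietal endoderm, stood at 1479 CPM with EPZ005687 and 6314 CPM with DMSO in ExE, against 211 and 137 CPM in A and 742 and 1196 CPM in P with EPZ005687 and DMSO (log2 fold change 3.01, SE 0.71). Thbd, a thrombin receptor of parietal endoderm and endothelium, was at 0 in ExE with EPZ005687 and at 62.8 CPM with DMSO, against 0 and 0.590 CPM in A and 2.82 and 44.7 CPM in P with EPZ005687 and DMSO. Thbd, Nid2 and Fst had ExE below the embryonic mean with EPZ005687, and Hspg2 had it below with DMSO. These 4 did not keep one sign. Nid1, Sox7 and Serpinh1 were above that mean in both arms but not above both A and P in each.

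Genes of absorptive epithelium were also higher in ExE. All 17 lysosome genes were tested. ExE was above the embryonic mean in both arms for 15 and above both A and P for 10, against 29.9% and 14.3%. The median log2 fold change was 1.61 (2.22 against A and 0.66 against P), and it was 0.73 without the ExE library with DMSO and 1.06 without the A library with DMSO. Ctsh, a cysteine protease, had 381 CPM with EPZ005687 and 521 CPM with DMSO in ExE, against 19.5 and 4.72 CPM in A and 212 and 447 CPM in P with EPZ005687 and DMSO (log2 fold change 2.84, SE 0.62). Cd63, a late endosome protein, was at 1567 CPM with EPZ005687 and 2347 CPM with DMSO in ExE, against 330 and 80.8 CPM in A and 534 and 965 CPM in P with EPZ005687 and DMSO, so that both ExE libraries exceeded all 4 embryonic ones. The exceptions were Psap and Scarb2, whose ExE level with EPZ005687 was below both A and P (Psap 12 CPM in ExE against 44.5 in A and 33.4 in P).

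For the brush border, 7 of 8 listed genes were tested and 5 had ExE above the embryonic mean in both arms (median log2 fold change 1.90). Over all tested genes this share was 29.9%. Vil1, the microvillus actin bundler, had 71.3 CPM with EPZ005687 and 149 CPM with DMSO in ExE, against 4.68 and 5.9 CPM in A and 33.9 and 78.6 CPM in P with EPZ005687 and DMSO. ExE was above both embryonic libraries of its arm (log2 fold change 2.64, SE 0.58). Of 12 simple epithelium genes, all tested, 10 were above the embryonic mean in both arms and 7 above both A and P. Over all tested genes these shares were 29.9% and 14.3%. The median log2 fold change of the 12 genes was 1.69 (2.69 against A and 0.67 against P). That median was 0.62 without the ExE library with DMSO and 1.03 without the A library with DMSO, and 2.54 to 2.99 without the ExE or the A library with EPZ005687 or the P library with DMSO. Krt18, a keratin of simple epithelia, had 2322 CPM with EPZ005687 and 1926 CPM with DMSO in ExE, against 422 and 28.9 CPM in A and 626 and 1288 CPM in P with EPZ005687 and DMSO (log2 fold change 2.29, SE 0.81).

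Genes of trophoblast progenitors showed no common direction. Of 14 listed 9 were tested (median log2 fold change −0.06). ExE was above the embryonic mean in both arms for 4 and below it for 4, against 29.9% and 25% of all tested genes. It was above both A and P in both arms for 3 and below both for 2, against 14.3% and 12.6%. Their summed level was 133 CPM with EPZ005687 and 162 CPM with DMSO in ExE, against 110 and 73.1 CPM in A and 149 and 122 CPM in P with EPZ005687 and DMSO. Cdx2, which trophoblast stem cells need, had no count in either ExE library, against 0 and 18.3 CPM in A and 6.58 and 0.672 CPM in P with EPZ005687 and DMSO. Eomes was at 5.61 and 2.24 CPM in ExE with EPZ005687 and DMSO, and Elf5, Esrrb and Tfap2c were at 3.60 CPM or less in both ExE libraries. Ets2, a transcription factor used in trophoblast and other tissues, was one of the 3 above both parts, with 69.7 CPM with EPZ005687 and 119 CPM with DMSO in ExE, against 24.2 and 6.49 CPM in A and 23.0 and 41 CPM in P with EPZ005687 and DMSO (log2 fold change 2.09, SE 0.70). The others were Tead4, a TEAD factor of trophectoderm, and Pcsk6, a proprotein convertase gene. Tead4 had 16.8 CPM with EPZ005687 and 9.87 CPM with DMSO in ExE, against 2.34 CPM and 0 in A and 4.70 and 2.02 CPM in P with EPZ005687 and DMSO (log2 fold change 3.04, SE 1.5), and Pcsk6 had a log2 fold change of 1.28 (SE 1.45).

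Of 22 genes of differentiated trophoblast 10 passed the filter. ExE was above the embryonic mean in both arms for 5 and below it for 2, against 29.9% and 25% of all tested genes. It was above both A and P for 4 and below both for 2, against 14.3% and 12.6%. The median log2 fold change was 0.98 (1.94 against A and 1.07 against P), or 2.15 without the P library with DMSO. In edgeR 4 members were higher at an unadjusted p under 0.05 and 0 lower, against 546 and 336 of all 13744 tested genes. Ascl2, Hand1, Tpbpa, Syna and Synb did not pass the filter and were at 3.60 CPM or less in both ExE libraries. The 4 above both A and P were the X-linked homeobox gene Rhox6, the gap junction gene Gjb2, the placental lactogen family gene Prl3d1 (at most 4.0 CPM) and Nrk. Rhox6 had 24.4 CPM with EPZ005687 and 69.3 CPM with DMSO in ExE, against 2.34 CPM and 0 in A and 2.35 and 6.38 CPM in P with EPZ005687 and DMSO (log2 fold change 4.26, SE 1.15). Nrk, a kinase gene of the placenta, had 213 CPM with EPZ005687 and 938 CPM with DMSO in ExE, against 24.99 and 43.6 CPM in A and 134 and 351 CPM in P with EPZ005687 and DMSO (log2 fold change 2.43, SE 0.52). Plac1, an X-linked placental gene, had a log2 fold change of 4.96 against A and 0.21 against P.

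**Figure D3:**
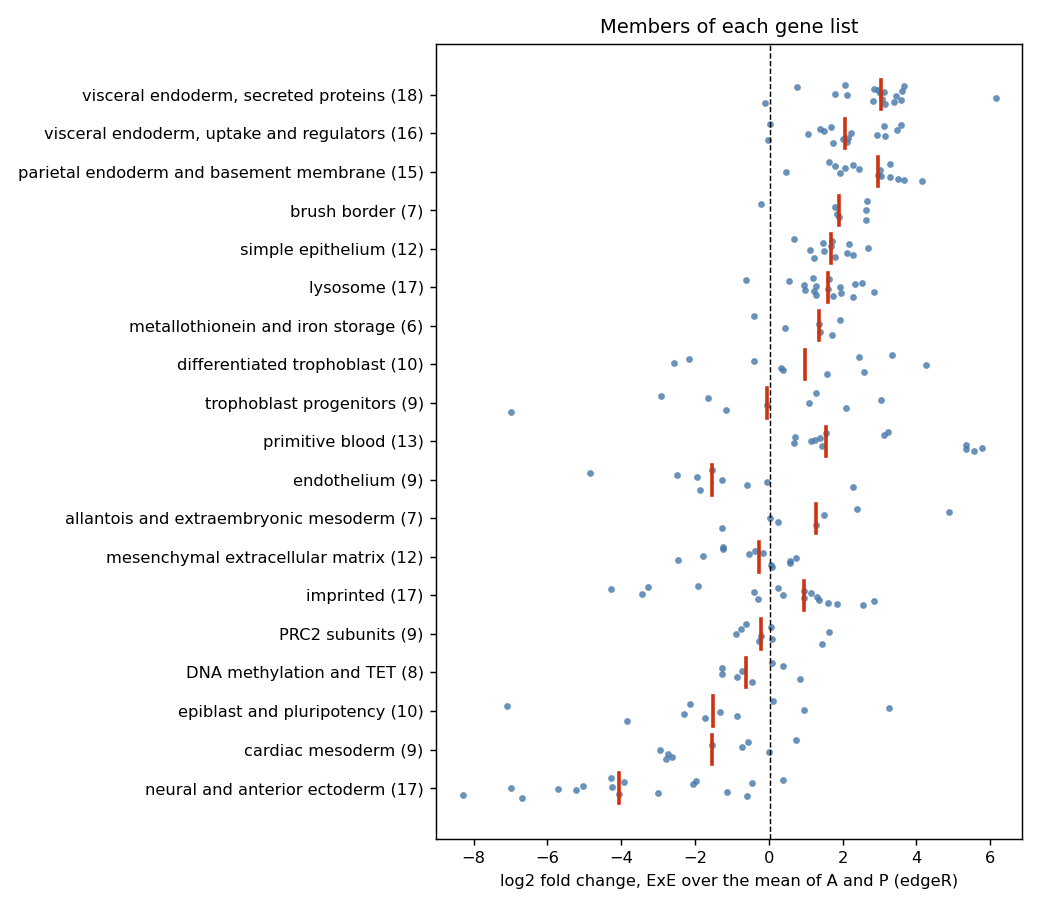
Each point is a tested member of a gene list (number tested in brackets), placed by its edgeR log2 fold change of ExE over the mean of A and P. Red bars are list medians and the dashed line the median of all tested genes (0.03). Endoderm, brush border, epithelium and lysosome lists lie right of 0 and the neural list lies left (median −4.07).

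Genes of neural and anterior ectoderm stood lower in ExE. Of 24 listed genes 17 were tested, and ExE was below the embryonic mean in both arms for 13, against 25% of all tested genes, and below both A and P for 9, against 12.6%. The median log2 fold change was −4.07, or −3.92 when the 2 members with no count in either ExE library (Sox2 and Lhx5) are set to the bound given by 3 counts per library. It was −4.95 against A and −3.35 against P. In edgeR 11 members were lower at an unadjusted p under 0.05, against 336 of all 13744 tested genes. The summed level was 65.7 CPM with EPZ005687 and 163 CPM with DMSO in ExE, against 982 and 4286 CPM in A and 573 and 488 CPM in P with EPZ005687 and DMSO, so both ExE libraries were under all 4 embryonic ones.

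Otx2, a homeobox gene of anterior ectoderm (chr14:48656781-48667644, minus strand), had 1.60 CPM with EPZ005687 and 0 with DMSO in ExE. A had 114 CPM with EPZ005687 and 202 CPM with DMSO, and P had 34.3 CPM with EPZ005687 and 25.2 CPM with DMSO. The order of the parts was ExE, P, A from low to high in both arms (log2 fold change −6.68, SE 1.17). The ExE libraries held 4 counts of Otx2 with EPZ005687 and 0 with DMSO, so the size of this value is not well measured. Sox2, a factor of epiblast and neural progenitors, had no count in either ExE library, against 26.5 and 32.4 CPM in A and 4.70 and 10.1 CPM in P with EPZ005687 and DMSO. With 3 counts as the floor of each ExE library, this was at least 13.0-fold lower than the mean of A and P with EPZ005687 and at least 31.6-fold lower with DMSO.

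Sox11, a neural progenitor factor, had 8.41 CPM with EPZ005687 and 45.3 CPM with DMSO in ExE, against 149 and 1329 CPM in A and 170 and 242 CPM in P with EPZ005687 and DMSO (log2 fold change −4.07, SE 0.77). Here P differed from ExE by −3.54 and A by −4.60 on the log2 scale, both read as ExE minus the embryonic part. Cdh2, N-cadherin, stood at 8.81 CPM with EPZ005687 and 2.24 CPM with DMSO in ExE, against 123 and 137 CPM in A and 127 and 16.8 CPM in P with EPZ005687 and DMSO (log2 fold change −4.29, SE 0.87). Ncam1, an adhesion molecule not limited to neural cells, was the only tested member of the list with ExE above the embryonic mean in both arms (log2 fold change 0.37, SE 0.67).

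Epiblast, streak and heart genes were mixed. Of 12 epiblast and pluripotency genes 10 were tested, with 6 below the embryonic mean in both arms and 2 above. The median log2 fold change was −1.52, and it was −0.84 without the ExE library with DMSO, −0.89 without the P library with DMSO and −1.0 without the A library with EPZ005687. Above it stood Sall4, a zinc finger factor, with 332 CPM with EPZ005687 and 3934 CPM with DMSO in ExE, against 154 and 1998 CPM in A and 140 and 2826 CPM in P with EPZ005687 and DMSO. L1td1, an RNA-binding protein gene, was also above both parts in both arms (log2 fold change 3.26, SE 0.94). Pou5f1 was at 1.20 and 0 CPM in ExE with EPZ005687 and DMSO and did not exceed 10.6 CPM anywhere, so little could be read from it at this depth. The streak gene T (brachyury) was at 0 and 0.224 CPM in ExE, against 159 CPM and 0 in A and 49.8 and 22.2 CPM in P with EPZ005687 and DMSO, and only 1 other of the 15 streak genes passed the filter.

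Of 13 genes of cardiac mesoderm 9 were tested, and ExE was below the embryonic mean in both arms for 6 and above it for 0. The median log2 fold change was −1.53, which was −0.11 against A and −3.77 against P. It was −0.52 without the P library with DMSO and −0.71 without the A library with DMSO. The 6 tested sarcomere genes (Tnnt2, Myl4, Actc1, Tnni1, Myh6 and Myh7) were highest in P with EPZ005687, the library with the high ribosomal share. The regulators Isl1 and Mef2c were highest in P with DMSO, and Smarcd3 was highest in ExE with DMSO. Actc1, cardiac actin, had 3.60 CPM with EPZ005687 and 0.448 CPM with DMSO in ExE, against 3.12 CPM and 0 in A and 359 and 22.2 CPM in P with EPZ005687 and DMSO. ExE and A overlapped and P was above both in each arm.

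**Figure D4:**
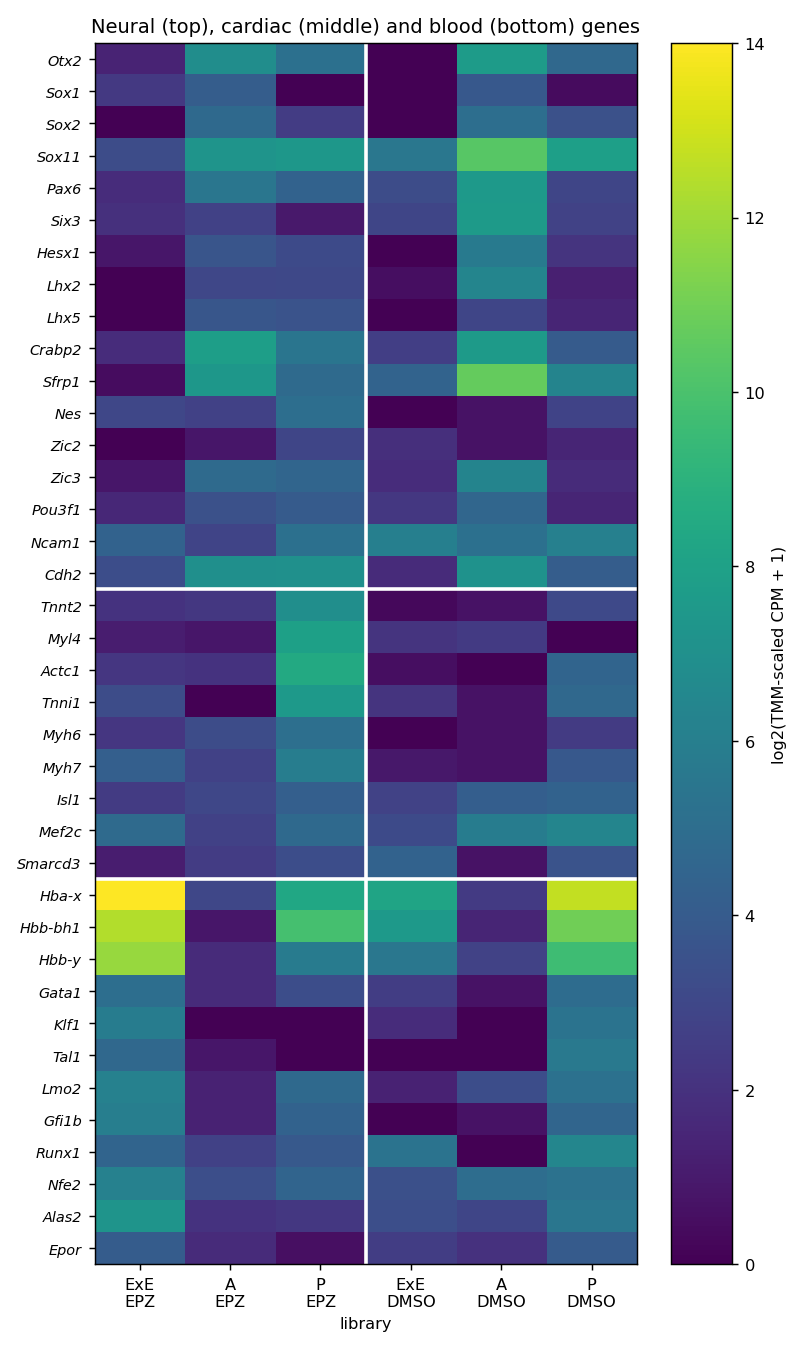
Rows are tested neural (top), cardiac (middle) and blood (bottom, 12 of 13) genes, columns the 6 libraries, and colour gives log2(TMM-scaled CPM + 1). Of the 17 neural rows, 13 have ExE below the mean of A and P in both arms (Sox2 has no count in either ExE library). Ncam1 has ExE above that mean in both arms. Sarcomere rows from Tnnt2 to Myh7 are brightest in P with EPZ005687 (Actc1 359 CPM). Blood rows are bright in ExE with EPZ005687 and in P with DMSO (Hba-x 18550 and 6678 CPM).

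Blood genes did not keep one sign between the arms. Of 14 genes of primitive blood 13 were tested, 10 had different signs in the arms and 0 were outside A and P in both. The median difference of ExE minus the mean of A and P was 4.56 with EPZ005687 and −0.79 with DMSO on the log2 scale. Hba-x, the embryonic zeta globin, stood at 18550 CPM with EPZ005687 and 294 CPM with DMSO in ExE, against 7.03 and 4.13 CPM in A and 328 and 6678 CPM in P with EPZ005687 and DMSO. The highest library was ExE with EPZ005687 and the second highest P with DMSO, while A was low in both arms.

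A term for the difference between arms was tested in a fit with 1 residual degree of freedom. That fit matches both ExE libraries exactly, so its spread comes from A and P alone and the ExE libraries are assumed to vary like them. edgeR called 7 of 13744 genes (0.0509%), all with a more positive ExE difference with EPZ005687 than with DMSO. Hbb-y, the embryonic epsilon-y globin, had 3609 CPM with EPZ005687 and 46.0 CPM with DMSO in ExE, against 2.34 and 5.896 CPM in A and 56.0 and 815 CPM in P with EPZ005687 and DMSO. ExE was the highest part with EPZ005687, while with DMSO it lay between A and P. The ExE difference was larger with EPZ005687 by 9.27 on the log2 scale (SE 1.83, edgeR adjusted p 0.00271). Slc25a37, the mitochondrial iron importer of red cell precursors, had 252 CPM with EPZ005687 and 2.91 CPM with DMSO in ExE, against 21.1 and 27.7 CPM in A and 10.8 and 168 CPM in P with EPZ005687 and DMSO. Its difference between arms was 8.61 (edgeR adjusted p 0.00381), and that of Ube2l6 was 7.53 (edgeR adjusted p 0.0451). Lin28b (8.0) and Acta2 (6.89) had an adjusted p of 0.0470 each. With counts scaled by library totals, or with genes of a mean CPM of 5 or more alone, edgeR called 0 genes, and DESeq2 called 16. Hbb-y and Slc25a37 each passed in 4 of 6 alternatives, Ube2l6 in 2, and Lin28b and Acta2 in 1 each.

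Setting ExE against A alone gave 15 called genes (0.109% of those tested), of which 9 rose and 6 fell in ExE. Each of the 15 kept its direction in all 13 alternatives, which their choice from the same libraries makes likely. The number of calls did depend on the choices made. With counts scaled by library totals, with genes of a mean CPM of 5 or more alone, or without the arm as a block it was 0, without the A library with DMSO it was 2, and without the A library with EPZ005687 it was 524. The median-ratio size factors gave 41, limma-voom 177, no count filter 325 and DESeq2 496.

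Among the genes that rose against A, Lgals2, a galectin (chr15:78850860-78855529), had 597 CPM with EPZ005687 and 1042 CPM with DMSO in ExE, against 3.90 and 0.590 CPM in A with EPZ005687 and DMSO. P stood between them at 325 CPM with EPZ005687 and 515 CPM with DMSO. The log2 fold change against A was 8.51 (SE 1.04, edgeR adjusted p 0.0414) and that against P 0.96 (SE 0.71). Rhox5, an X-linked homeobox gene of extraembryonic tissue, had 512 CPM with EPZ005687 and 864 CPM with DMSO in ExE, against 18 and 10.0 CPM in A and 320 and 507 CPM in P with EPZ005687 and DMSO. Its log2 fold change was 5.56 against A (SE 0.79, edgeR adjusted p 0.0414) and 0.73 against P (SE 0.64).

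Phlda2, an imprinted gene that limits placental growth, had 205 CPM with EPZ005687 and 487 CPM with DMSO in ExE, against 3.90 and 16.5 CPM in A and 117 and 465 CPM in P with EPZ005687 and DMSO. It rose by 5.26 on the log2 scale against A (SE 0.73, edgeR adjusted p 0.0414) and differed by 0.45 from P (SE 0.59). S100a1, a calcium-binding protein gene, rose against A (log2 fold change 6.33, edgeR adjusted p 0.0414) at 367 CPM with EPZ005687 and 254 CPM with DMSO in ExE, against 331 and 326 CPM in P with EPZ005687 and DMSO, so ExE and P overlapped. Hspb1, a small heat shock protein gene, Hkdc1, a hexokinase family gene, Mgst3, a microsomal glutathione transferase gene, Vamp8, a SNARE of endosomes, and Fabp3, a fatty acid binding protein gene, rose against A by 4.53 to 6.93 on the log2 scale. Against P their log2 fold changes ran from 1.12 to 1.98.

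Of the 6 genes that fell against A, 3 (Otx2, Sfrp1 and Crabp2) are on the neural list and Peg12 is on the imprinted list. Chst2, a sulfotransferase gene (chr9:95400926-95407270), had 0.801 CPM with EPZ005687 and 0.448 CPM with DMSO in ExE, against 105 and 188 CPM in A and 8.46 and 28.2 CPM in P with EPZ005687 and DMSO. The log2 fold change was −7.82 against A (SE 1.04, edgeR adjusted p 0.0414) and −4.71 against P (SE 0.98). Each ExE library held 2 counts of Chst2, under the floor of 3, so the size of both values is not well measured. Sfrp1, a secreted Wnt antagonist, had 0.400 CPM with EPZ005687 and 20.6 CPM with DMSO in ExE, against 170 and 1667 CPM in A and 27.3 and 78.6 CPM in P with EPZ005687 and DMSO. It fell by 6.72 on the log2 scale against A (SE 0.97, edgeR adjusted p 0.0414). Crabp2, a retinoic acid carrier, fell by 5.73 on the log2 scale against A (edgeR adjusted p 0.0414). Otx2 fell by 7.94 on the log2 scale against A (edgeR adjusted p 0.0446). Its ExE levels rest on 4 counts with EPZ005687 and 0 with DMSO, so that size is not well measured.

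Stmn2, a microtubule regulator of neurons, had no count in either ExE library, against 27.3 and 262 CPM in A and 8.46 and 7.73 CPM in P with EPZ005687 and DMSO. This was at least 14.9-fold lower than the mean of A and P with EPZ005687 and at least 200.0-fold lower with DMSO. Peg12, a paternally expressed imprinted gene, had 1.20 CPM with EPZ005687 and 21.1 CPM with DMSO in ExE, against 32.0 and 818 CPM in A and 1.41 and 82.3 CPM in P with EPZ005687 and DMSO. It fell by 5.12 on the log2 scale against A (SE 0.78, edgeR adjusted p 0.0414), and with EPZ005687 its level in ExE was near that in P.

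**Figure D5:**
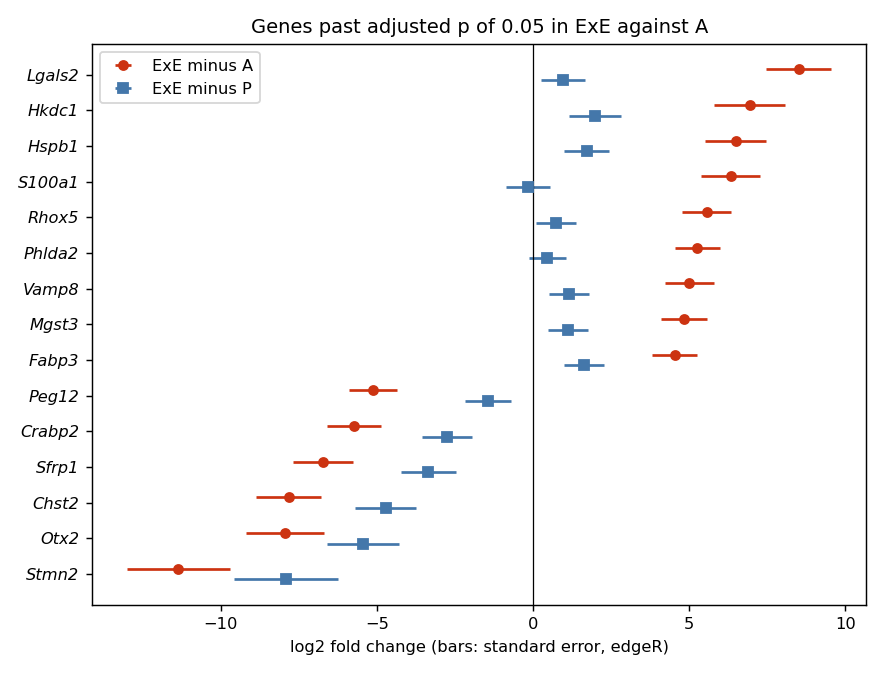
The 15 genes called in ExE against A are shown with their log2 fold change against A (circles) and against P (squares); bars are standard errors. For the 9 genes that rose, the values against P lie between −0.16 (S100a1) and 1.98 (Hkdc1). For the 6 that fell they lie between −1.44 (Peg12) and −7.90 (Stmn2). Stmn2 had no count and Chst2 had 2 counts in each ExE library, under the floor of 3, so the size of their values is not measured. Otx2 had 4 counts with EPZ005687 and 0 with DMSO in ExE, so its size is not well measured.

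Against P alone edgeR called 0 of 13744 genes (0.0%), with 368 at an unadjusted p under 0.05, DESeq2 called 32 (3 higher and 29 lower in ExE), and limma-voom called 2. Without the P library with DMSO edgeR called 140. The log2 difference of ExE minus P was over 2 in 6 of 18 secreted endoderm genes, led by Apoa2 (3.72, SE 1.20) and Fgg (2.95), and below 0 in 3. It was over 2 in 7 of 15 parietal endoderm genes, led by Lama1 (3.39), and below 0 in 1. Apom, a lipoprotein component, was below P in both arms, with 362 CPM with EPZ005687 and 254 CPM with DMSO in ExE, against 474 and 378 CPM in P with EPZ005687 and DMSO. Kng1, the kininogen gene of plasma, is one of the genes named by the rule for the main comparison. Kng1 had 103 CPM with EPZ005687 and 461 CPM with DMSO in ExE, against 14.1 and 1.77 CPM in A and 13.2 and 16.1 CPM in P with EPZ005687 and DMSO. Both ExE libraries were above all 4 embryonic ones, and the log2 fold change was 4.21 against P (SE 1.02) and 5.07 against A (SE 1.14).

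Of the 12 named genes that were higher in ExE than the mean of A and P, Hspb1 and Phlda2 overlapped the embryonic libraries when arms were pooled, and the other 10 had both ExE libraries above all 4. Cryab, a lens and muscle chaperone related to the small heat shock proteins, had 301 CPM with EPZ005687 and 251 CPM with DMSO in ExE, against 20.3 and 4.13 CPM in A and 74.3 and 43.3 CPM in P with EPZ005687 and DMSO (log2 fold change 3.55, SE 0.57). Epas1, which encodes the hypoxia-inducible factor HIF-2 alpha, had 225 CPM with EPZ005687 and 657 CPM with DMSO in ExE, against 16.4 and 3.54 CPM in A and 58.3 and 114 CPM in P with EPZ005687 and DMSO (log2 fold change 3.81, SE 0.69). All 12 had edgeR adjusted p of 0.131 to 0.132.

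The 12 named genes that were lower in ExE had both ExE libraries under all 4 embryonic ones, which the rule that chose them makes likely. Beside the neural genes and Chst2 and Stmn2 above, they include Ncs1, a neuronal calcium sensor, and the zinc finger gene Zfp521, both with no count in ExE. Ncs1 had 36.7 and 17.7 CPM in A and 27.3 and 26.2 CPM in P with EPZ005687 and DMSO, which puts ExE at least 26.6-fold lower with EPZ005687 and at least 32.6-fold lower with DMSO than the mean of A and P. Zik1, a zinc finger gene, had 0.801 CPM with EPZ005687 and 0.224 CPM with DMSO in ExE. A had 38.3 and 27.7 CPM and P had 33.9 and 30.9 CPM with EPZ005687 and DMSO. The log2 fold change was −6.01 against each part. Its ExE levels rest on 2 and 1 counts, under the floor of 3, so that size is not well measured. Tmem47, an X-linked gene of a junctional membrane protein, and 2810417H13Rik, the PCNA-associated factor gene, had log2 fold changes of −4.19 (SE 0.84) and −3.31 (SE 0.65).

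Imprinted genes went both ways. Of 19 listed 17 were tested, with 8 above the embryonic mean in both arms and 4 below (median log2 fold change 0.94). Over all tested genes these shares were 29.9% and 25%. H19, the maternally expressed noncoding RNA, had 1720 CPM with EPZ005687 and 1234 CPM with DMSO in ExE, against 218 and 1.18 CPM in A and 277 and 1029 CPM in P with EPZ005687 and DMSO. Both ExE libraries were above all 4 embryonic libraries (log2 fold change 2.54, SE 1.07). Mest, a paternally expressed gene, had 59.7 CPM with EPZ005687 and 3.59 CPM with DMSO in ExE, against 679 and 358 CPM in A and 66.3 and 137 CPM in P with EPZ005687 and DMSO (log2 fold change −3.44, SE 1.01). ExE was below A and P in each arm, narrowly so against P with EPZ005687.

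Genes behind H3K27me3 and DNA methylation, the marks the series is about, went both ways. Of 10 listed subunits of Polycomb repressive complex 2 (PRC2), 9 were tested. ExE was above the embryonic mean in both arms for 3 and below it for 4, against 29.9% and 25% of all tested genes. The median log2 fold change of PRC2 was −0.22. Ezh2, its catalytic subunit, had 144 CPM with EPZ005687 and 366 CPM with DMSO in ExE, against 173 and 471 CPM in A and 194 and 367 CPM in P with EPZ005687 and DMSO. ExE was lowest in both arms, but by little (log2 fold change −0.27, SE 0.51). Rbbp7, a histone-binding subunit shared with other complexes, was above both parts with 2396 CPM with EPZ005687 and 5697 CPM with DMSO in ExE, against 878 and 574 CPM in A and 950 and 3210 CPM in P with EPZ005687 and DMSO (log2 fold change 1.62, SE 0.69).

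Of 9 genes for DNA methylation and its removal 8 were tested. Among them 2 were above the embryonic mean in both arms and 5 below, against 29.9% and 25% of all tested genes. The median log2 fold change was −0.61, and it was −0.18 without the ExE library with DMSO, −0.38 without the P library with DMSO and −0.97 without the ExE library with EPZ005687. Dnmt3b, a de novo methyltransferase, had 35.2 CPM with EPZ005687 and 48.4 CPM with DMSO in ExE, against 48.4 and 124 CPM in A and 46.6 and 123 CPM in P with EPZ005687 and DMSO. Tet1, which oxidises methylcytosine, had 28.8 CPM with EPZ005687 and 45.1 CPM with DMSO in ExE, against 48.4 and 156 CPM in A and 79.0 and 84.6 CPM in P with EPZ005687 and DMSO. Both were lowest in ExE in each arm, with log2 fold changes of −0.87 (SE 0.59) and −1.28 (SE 0.62). Dnmt3a, the other de novo enzyme, was highest in ExE in each arm (log2 fold change 0.84, SE 0.56).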

How the data were processed

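The authors deposited whole-number read counts per gene and library, not normalized. Tools listed in the submitters' processing notes are CASAVA 1.8, TopHat2 2.0.9 and BWA, with build mm10; for the counts, tool, strand setting and annotation are not stated there, so reads of overlapping or antisense genes cannot be told apart. Of 23154 entries, 27 with a date in place of a symbol (0.162% to 0.961% of counts) were left out. Of the other 23127, 23009 (99.5%) matched the RefSeq table of GRCm38.p6, which gave coordinates and promoters.

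The 13744 tested genes had a count of 10 or more in 2 libraries or more. After TMM scaling, the quasi-likelihood model of edgeR 4.0.16 (in R 4.3.3) had region and arm as additive terms, which leaves 2 residual degrees of freedom. The contrasts were ExE minus the mean of A and P, minus A and minus P. Another fit added a term for ExE with EPZ005687. The test borrows information on variance across genes, which is why p-values can be small at these degrees of freedom. Adjusted p-values are Benjamini-Hochberg values over all tested genes, with a threshold of 0.05, and each SE was obtained from the log2 fold change and its F statistic. Differences per arm used TMM-scaled CPM and a prior count of 2. DESeq2 1.42.0, limma-voom 3.58.1, other scalings, filters, designs and each library left out were alternatives. The fit was tested on simulated counts.

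Named genes were the 12 smallest p-values each way among genes with one sign in both arms, ExE outside A and P in both and a mean of 20 CPM or more in the higher part, plus list members with high means, called genes and the smallest p-values between arms. Genes given as exceptions within a list (Lrp2, Emb, Ncam1, Psap, Scarb2, Thbd, Plac1 and the like) were chosen after their values were seen. The comparison, its members and the gene lists were chosen with earlier results of these data known, while each library's part and arm come from its labels. Of the 7 genes called between arms, 2 are not reported here. Intervals and floors cover counting error only.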

Additional observations from a re-analysis of the deposited data

Results flagged for a closer look

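The difference between arms in ExE against the embryonic parts passed the test in 7 genes, all with a more positive ExE difference with EPZ005687. The spread in that fit comes from A and P alone. On the log2 scale the arms differed by 9.27 for Hbb-y, 8.61 for Slc25a37, 7.53 for Ube2l6, 8.0 for Lin28b and 6.89 for Acta2 (edgeR, adjusted p from 0.00271 to 0.0470). Of these 5 genes, Hbb-y, Slc25a37 and Ube2l6 had their highest level in ExE with EPZ005687. Acta2, smooth muscle actin, had 148 CPM with EPZ005687 and 1.57 CPM with DMSO in ExE, against 14.1 and 20.05 CPM in A and 182 and 215 CPM in P with EPZ005687 and DMSO. Lin28b, an RNA-binding regulator of let-7, had 29.6 CPM with EPZ005687 and 0.224 CPM with DMSO in ExE, against 98.4 and 209 CPM in A and 22.1 and 57.4 CPM in P with EPZ005687 and DMSO. The summed level of the 14 blood genes was 28320 CPM with EPZ005687 and 604.5 CPM with DMSO in ExE. It was 39.0 and 65.4 CPM in A and 1430 and 9908 CPM in P with EPZ005687 and DMSO. Hba-x alone gave 18550 and 294 CPM of the ExE sums. The blood list holds Hbb-y, so this sum is not an observation apart from the called genes. The part of blood in the result was not tested. Each arm has 1 library per part, so the inhibitor, the handling of an arm and the cut that separated the pieces cannot be told apart.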

How the results depend on the processing

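Calls depended on the processing. For ExE against the mean of A and P, DESeq2 called 242 genes, limma-voom 35, edgeR with no filter on low counts 210, and edgeR without 1 library 0 to 388. Library totals, median-ratio size factors, a mean CPM of 5 or more, A and P as 1 group and no arm block gave 0 there. For ExE against A the numbers were 496 (DESeq2), 177 (limma-voom), 325 (no filter), 41 (median-ratio size factors), 0 (library totals, mean CPM of 5 or more, no arm block) and 2 to 524 without 1 library. For ExE against P they were 32 (DESeq2), 2 (limma-voom), 24 (no filter) and 0 to 140 without 1 library. For the difference between arms they were 16 (DESeq2) and 0 (library totals, mean CPM of 5 or more), and leaving out a library could not be run, since no residual degree of freedom is left. With no filter 5643 genes were below the A and P mean in both arms, since more low genes enter. As an alternative chosen after seeing the data, leaving out 1 library gave 2406 to 4932 genes above both A and P and 2368 to 4581 below both, because fewer libraries then bound ExE. The cause of the other shifts was not tested.

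The 24 named genes kept their direction in all 336 alternatives, and 117 of these passed the threshold; since they were chosen from the same libraries for one sign in both arms, this is no sign of stability. List medians were recomputed with DESeq2, with library totals and with each library left out, and under no other alternative. Among these they changed sign only when a library was left out. The ranges were −3.83 to 3.27 for anterior visceral endoderm, −0.43 to 0.71 for trophoblast progenitors, −0.78 to 5.43 for primitive blood and −3.91 to 0.05 for endothelium. They were −0.25 to 0.95 for maternal decidua, −4.21 to 0.94 for maternal leukocytes, −2.43 to 0.17 for mesenchymal matrix and −0.18 to 1.63 for signals. For BMP response the range was −1.16 to 0.21, for PRC2 −0.35 to 0.02 and for imprinted genes −0.28 to 1.18. Medians of secreted endoderm genes stayed between 2.16 and 5.83 and those of neural genes between −4.54 and −3.07, while those of allantois ran from 0.47 to 2.42, of heat shock from 0.04 to 1.41 and of metal handling from 0.53 to 1.70. No paired analysis was possible beyond the arm block of the model itself, because each part and arm has 1 RNA library and replicate numbers pair nothing further.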

Other observations

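Other groups described the pieces further. Endothelial genes (9 of 10 tested) had a median log2 fold change of −1.55 in ExE against the mean of A and P. It was −0.2 against A and −2.16 against P. The median difference per arm was −0.03 with EPZ005687 and −2.23 with DMSO. Only 1 of the 9 was below both A and P in both arms, against 12.6% of all tested genes. Flt1, a VEGF receptor gene that trophoblast also uses, went the other way, with 121 CPM with EPZ005687 and 83.4 CPM with DMSO in ExE, against 9.37 and 4.72 CPM in A and 64.9 and 57.4 CPM in P with EPZ005687 and DMSO. Both ExE libraries were above all 4 embryonic ones (log2 fold change 2.29, SE 0.57), while the endothelial receptor Kdr was at 19.2 and 0.224 CPM in ExE with EPZ005687 and DMSO. Genes of metal handling (6 of 6 tested) had a median of 1.37, which was 2.16 against A and −0.01 against P. Mt1, a metallothionein gene, had 291 CPM with EPZ005687 and 450 CPM with DMSO in ExE, against 42.2 and 30.7 CPM in A and 721 and 185 CPM in P with EPZ005687 and DMSO.

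Genes of allantois and extraembryonic mesoderm (7 of 10 tested, median 1.27), mesenchymal matrix (12 of 14, −0.27), BMP response (7 of 8, −0.19), signals between extraembryonic tissue and epiblast (7 of 15, 1.09), and anterior visceral endoderm (4 of 5, 1.07) had no common direction in both arms. Of the heat shock genes (8 of 10, 0.47), 5 were above the embryonic mean in both arms and 1 below. Summed markers of maternal decidua were between 12.1 and 52.0 CPM and those of maternal leukocytes between 24.2 and 60.1 CPM over the 6 libraries. Of 11 leukocyte markers 4 were tested, and they did not go one way. C1qa, C1qb and C1qc were at 0.400 CPM or less in ExE. Csf1r, a growth factor receptor gene of macrophages, had 19.2 CPM with EPZ005687 and 23.1 CPM with DMSO in ExE, against 3.12 CPM and 0 in A and 13.6 and 2.69 CPM in P with EPZ005687 and DMSO (log2 fold change 3.33, SE 1.40), so ExE was above both parts in both arms. Ptprc, the leukocyte antigen CD45, had 11.2 CPM with EPZ005687 and 1.12 CPM with DMSO in ExE, against 11.7 and 45.4 CPM in A and 6.58 and 11.8 CPM in P with EPZ005687 and DMSO. The part of leukocytes in the results was not tested.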
